A study of Mus musculus with 4 samples.

Results

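A set of 5 pairs of protein-coding genes that overlap on opposite DNA strands, 10 genes of the 32285 in the tables, were followed through 4 single-nucleus RNA libraries of mouse brain. In each pair one gene had few unique molecular identifiers (UMIs, which mark single captured molecules), here the minor partner, and the other had many, the major partner. The pairs, minor partner first, were Lrtm1/Cacna2d3, Rec114/Nptn, Angptl2/Ralgps1, Angpt2/Mcph1 and Fndc9/Cyfip2. They were chosen by their UMI levels in fixed and unfixed libraries, because the minor partners stood lower after methanol, so the fixation values describe the choice and support nothing.

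The libraries came from wild-type C57BL/6 mice of 10 weeks, from the brain without its cerebellum, frozen on dry ice for 10 min, with at most 50 mg of tissue per nuclear extraction. The droplet kit, SeekOne DD, captures the 3′ end of transcripts. The in vivo methanol-fixed library and the in vivo unfixed library were made from brain tissue taken by craniotomy under isoflurane. The post-mortem methanol-fixed library and the post-mortem unfixed library were made from brain tissue taken after cervical dislocation. How many mice were used, and whether the fixed and unfixed nuclei of one harvest came from the same brain, is not given in the sources used here, and a pair below means the 2 libraries that share a harvest or a state of fixation. Fixed nuclei stood in 80% methanol at -20 °C for 30 min and then passed through a further buffer exchange and spin that the unfixed nuclei did not have, so methanol and that step cannot be told apart. Each group holds 1 library, with no replicate check, no p-value and no separation of a condition from its animal, tissue piece or library. The study set out to measure how harvest and fixation act on such data.

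Kept nuclei numbered 6811 (in vivo fixed), 15081 (in vivo unfixed), 9809 (post-mortem fixed) and 12378 (post-mortem unfixed). They held 59659789, 51823037, 66475595 and 50967320 UMIs in the same order, so the fixed libraries had fewer and deeper nuclei, with medians of 7822 and 6293 UMIs against 3020 and 3779 in the unfixed ones. Nuclei were gated into classes by 10 markers each, and the class names rest on those markers. Between 41 and 148 kept barcodes were shared by any pair of libraries, at most 1.20% of the smaller one. Excitatory neuron-like nuclei made up 31.2% (in vivo fixed), 24.4% (in vivo unfixed), 21.2% (post-mortem fixed) and 17.7% (post-mortem unfixed) of kept nuclei. Medium spiny neuron-like nuclei, which in the brain are striatal projection neurons, made up 15.6%, 13.1%, 19.3% and 21.2% in the same order.

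Genes that share a stretch of DNA on opposite strands make RNAs that are complementary there. In nuclei, much of the RNA of a long gene is unspliced and still holds its introns, so it also spans any gene that lies within an intron. Counting software that keeps the strand of a read can separate the genes of such a pair, and software that ignores it cannot. The strand setting used for these tables is not given in the sources used here, and a UMI from a shared stretch can therefore not be assigned to one gene of a pair with certainty.

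The pairs differ in function. Cacna2d3 encodes an alpha2delta subunit, an auxiliary protein of voltage-gated calcium channels, and Lrtm1 a leucine-rich repeat transmembrane protein. Nptn encodes neuroplastin, an immunoglobulin-family adhesion protein that binds plasma membrane calcium pumps, while Rec114 is known from germ cells, where it is needed for the DNA breaks that start meiotic recombination. Ralgps1 is an exchange factor that activates Ral GTPases, and Angptl2 a secreted angiopoietin-like glycoprotein. Mcph1 (microcephalin) acts in chromosome condensation and the DNA damage response, and Angpt2 is a secreted ligand of the endothelial receptor TIE2. Cyfip2 is a subunit of the WAVE complex, which drives actin branching, and Fndc9 encodes a protein with a fibronectin type III domain.

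In the GENCODE annotation of GRCm38, the assembly also called mm10, 4 of the 5 minor partners lay wholly inside 1 intron of the major partner, with 0 exon bases in common. Lrtm1 (ENSMUSG00000045776) covers chr14:29018208-29033645 on the plus strand, inside intron 27 of the 38-exon Cacna2d3 transcript (ENSMUSG00000021991, chr14:28904943-29721864, minus strand). Angptl2 (ENSMUSG00000004105, chr2:33216069-33247717, plus) lies in intron 8 of Ralgps1 (ENSMUSG00000038831, chr2:33133417-33371486, minus). Angpt2 (ENSMUSG00000031465, chr8:18690263-18741562, minus) lies in intron 12 of Mcph1 (ENSMUSG00000039842, chr8:18595131-18803189, plus), and Fndc9 (ENSMUSG00000048721, chr11:46235531-46239872, plus) in intron 23 of Cyfip2 (ENSMUSG00000020340, chr11:46193850-46312859, minus). Rec114 (ENSMUSG00000074269, chr9:58652850-58743964, minus) and Nptn (ENSMUSG00000032336, chr9:58582240-58657955, plus) instead meet tail to tail and share 5106 bases, which is 5.60% of the length of Rec114 and includes 344 exon bases. Of the 13 Nptn transcripts annotated, 4 reach into Rec114.

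**Figure D1:**
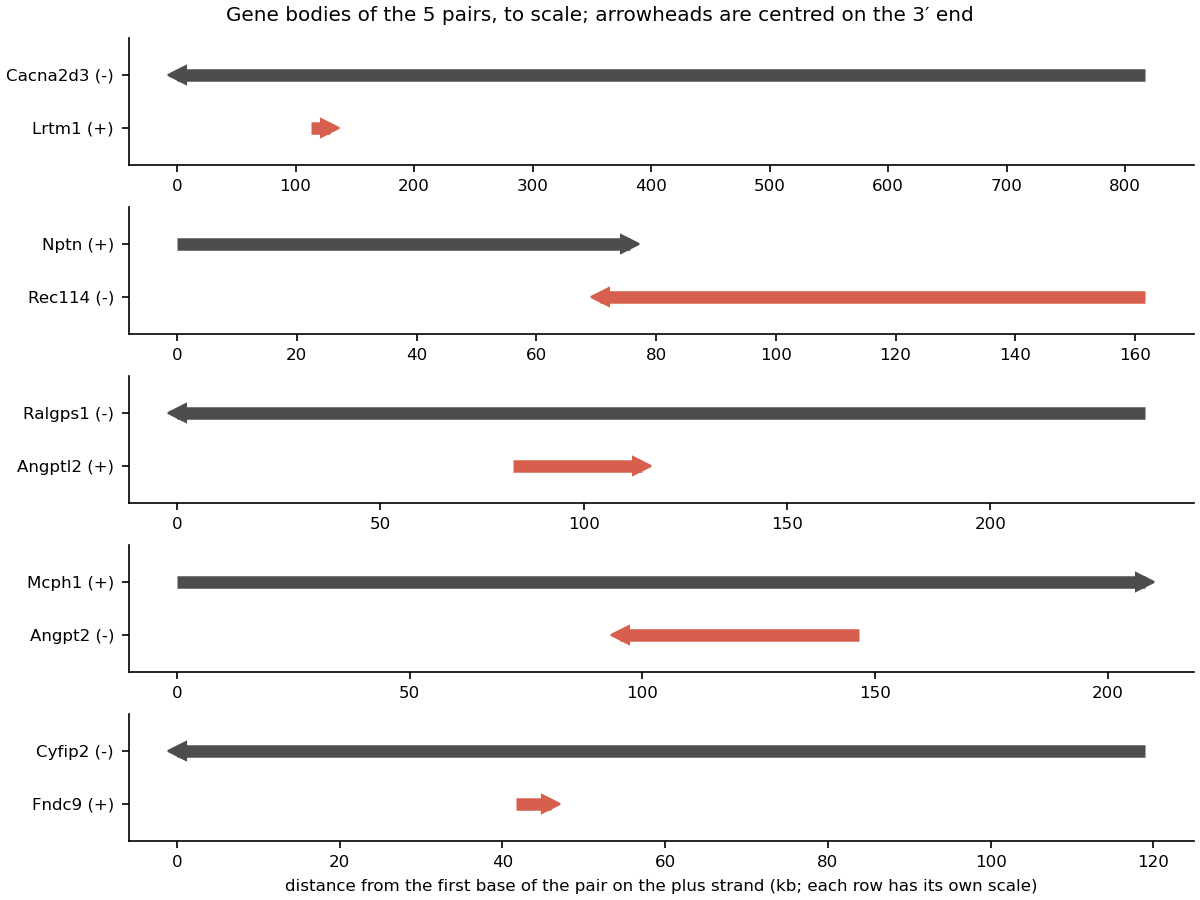
Gene bodies of the 5 pairs to scale, with distance in kb from the first base of each pair on the horizontal axis and a separate scale per row. Minor partners are red, major partners grey, and arrowheads point to the 3′ end; Lrtm1, Angptl2, Angpt2 and Fndc9 sit inside their partner, and Rec114 meets Nptn end to end.

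The sequence just before the start of 3 nested genes is shown because it lies inside an intron of the major partner, and so belongs to the body of that gene as well. The windows are from RefSeq on GRCm38.p6, given 5′ to 3′ on the strand of the minor partner, and no annotated GENCODE exon covers any of their bases. RefSeq windows of Angpt2 and Mcph1 were not used here. The window of Lrtm1 is chr14:29017958-29018207 (plus), that of Angptl2 chr2:33215711-33215960 (plus) and that of Fndc9 chr11:46235307-46235530 (plus). The fourth sequence is exon 5 of the 6 exons of Rec114, chr9:58657757-58657843 (minus), from GENCODE. All 87 of its bases are coding, and all lie over an exon of 1 annotated Nptn transcript on the other strand.
Lrtm1: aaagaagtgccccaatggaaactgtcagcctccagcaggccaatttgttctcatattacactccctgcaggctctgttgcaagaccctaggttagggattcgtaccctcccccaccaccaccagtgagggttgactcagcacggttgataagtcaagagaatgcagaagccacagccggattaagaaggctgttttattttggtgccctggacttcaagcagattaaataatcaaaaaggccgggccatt
Angptl2: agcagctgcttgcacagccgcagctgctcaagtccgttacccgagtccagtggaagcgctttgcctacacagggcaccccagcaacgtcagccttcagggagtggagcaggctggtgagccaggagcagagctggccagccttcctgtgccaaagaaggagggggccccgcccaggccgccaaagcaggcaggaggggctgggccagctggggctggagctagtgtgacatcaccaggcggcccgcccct
Fndc9: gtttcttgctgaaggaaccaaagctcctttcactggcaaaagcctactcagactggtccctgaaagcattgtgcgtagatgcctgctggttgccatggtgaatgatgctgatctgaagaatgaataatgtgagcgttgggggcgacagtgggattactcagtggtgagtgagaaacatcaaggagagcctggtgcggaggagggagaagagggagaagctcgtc
Rec114 exon 5: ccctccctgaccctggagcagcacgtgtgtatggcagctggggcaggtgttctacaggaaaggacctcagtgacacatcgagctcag
The GC content of the windows is 49.2% (Lrtm1), 66.8% (Angptl2) and 51.3% (Fndc9), against a median of 52.4% over 32851 RefSeq windows of 250 bases. That of Rec114 exon 5 is 59.8%, and no background of coding exons was computed for it. The windows of Lrtm1, Angptl2 and Fndc9 hold no run of 6 adenines on either strand (AAAAAA or TTTTTT), a run that 17.7% of the RefSeq windows hold. The window of Rec114, which lies outside the stretch shared with Nptn and is not printed, does hold AAAAAA.

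In all kept nuclei the minor partners stood low after methanol in both harvests, while the major partners differed less (log2 from -0.38 to 0.31). Lrtm1 had 401 UMIs in the in vivo fixed library against 1371 in the in vivo unfixed one, and 852 in the post-mortem fixed library against 2335 in the post-mortem unfixed one. Scaled to the UMI total of the library (CPM, UMIs per 1000000), these are 6.72 against 26.5 CPM and 12.8 against 45.8 CPM. Its partner Cacna2d3 had 865 against 993 CPM in the in vivo pair and 1068 against 1222 CPM in the post-mortem pair. Both unfixed libraries were thus above both fixed ones for Lrtm1, whereas Cacna2d3 in the post-mortem fixed library was above the in vivo unfixed one. The log2 ratio of Lrtm1, fixed over unfixed, was -1.98 in vivo (95% interval -2.14 to -1.82) and -1.84 post-mortem (-1.95 to -1.72), and that of Cacna2d3 -0.20 and -0.19. Intervals here cover counting error only.

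Rec114 had 243 UMIs in the in vivo fixed library and 700 in the in vivo unfixed one, and 357 and 928 in the post-mortem fixed and unfixed ones. The levels are 4.07 against 13.5 CPM in vivo and 5.37 against 18.2 CPM post-mortem (log2 -1.73 and -1.76). Nptn went the other way, with 446 against 360 CPM in vivo and 444 against 378 CPM post-mortem (log2 0.31 and 0.23). It is the only major partner that was higher in the fixed library of both pairs.

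Angptl2 had 390 UMIs in the in vivo fixed library and 1079 in the in vivo unfixed one, and 460 and 1146 post-mortem, which is 6.54 against 20.8 CPM and 6.92 against 22.5 CPM (log2 -1.67 and -1.70). Ralgps1 had 175 against 221 CPM in vivo and 154 against 187 CPM post-mortem (log2 -0.34 and -0.28). Angptl2 was nearly level between the harvests within each state of fixation, and Ralgps1 was not.

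Angpt2 had 280 UMIs in the in vivo fixed library and 809 in the in vivo unfixed one, and 322 and 889 post-mortem, which is 4.69 against 15.6 CPM and 4.84 against 17.4 CPM (log2 -1.73 and -1.85). Mcph1 stood at 83.7 against 109 CPM in vivo and 71.2 against 85.3 CPM post-mortem (log2 -0.38 and -0.26). Fndc9, the minor partner with the highest level, had 843 UMIs in vivo fixed and 2572 in vivo unfixed, and 1257 and 3382 post-mortem, which is 14.1 against 49.6 CPM and 18.9 against 66.4 CPM (log2 -1.81 in both pairs). Cyfip2 stood at 173 against 176 CPM in vivo and 152 against 155 CPM post-mortem, and both of its intervals include 0 (log2 -0.02, -0.07 to 0.02, and -0.03, -0.07 to 0.02).

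**Figure D2:**
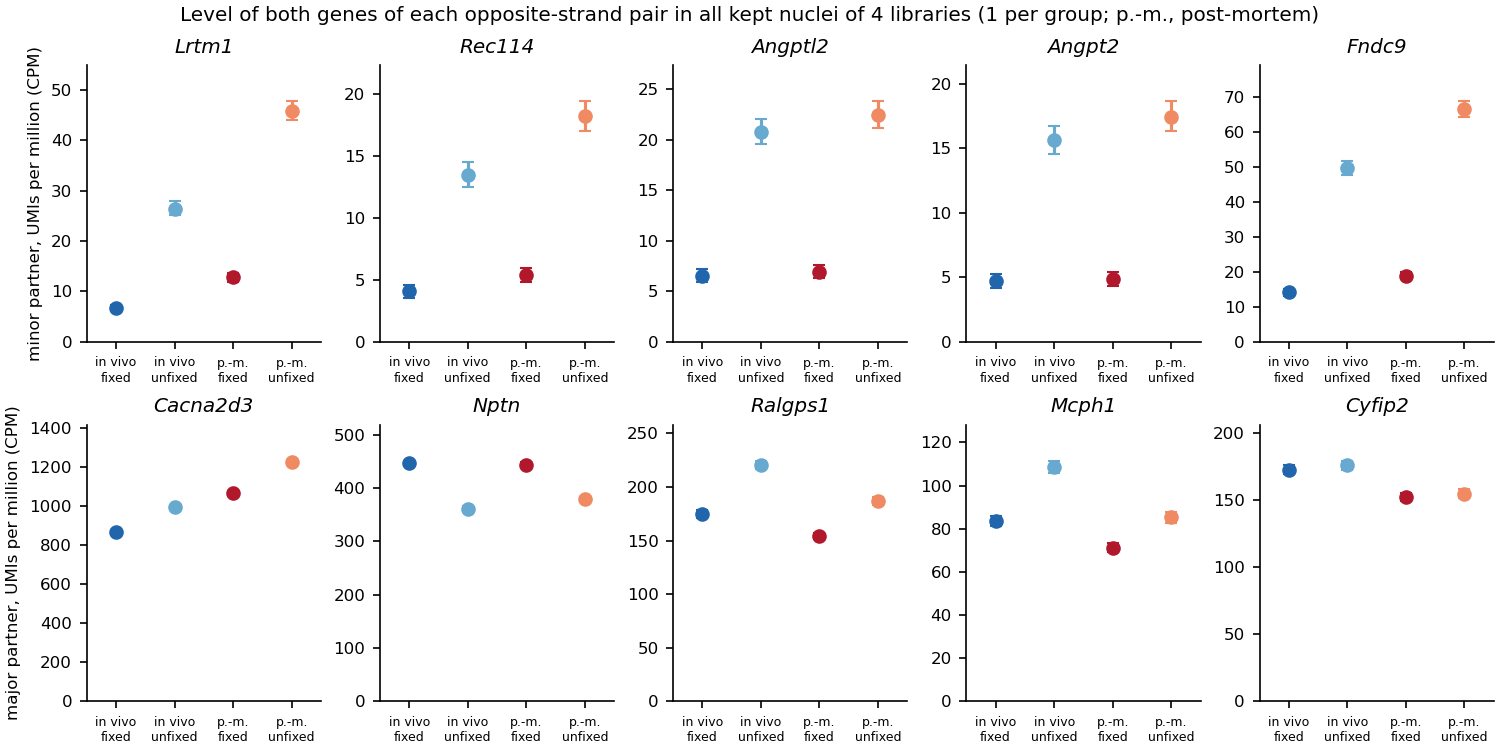
CPM of each gene in all kept nuclei of the 4 libraries, minor partners above and major partners below, each panel with its own vertical axis from 0; bars are 95% Poisson intervals. For every minor partner both fixed libraries lie below both unfixed ones, between 4.07 and 18.9 CPM.

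By the choice of the pairs, all 5 minor partners were lower by 2-fold or more after methanol in both harvests, and 0 of the 5 major partners were. Among all 9787 genes at a mean of 10 CPM or more, 2.2% were that much lower and 0.307% that much higher. The median log2 ratio over all these genes was -0.02 in each pair. Ranked by the smaller of the 2 differences, Lrtm1 was 18th from the lowest, Fndc9 19th, Angpt2 32nd, Rec114 34th and Angptl2 43rd. Leaving out predicted names, nearest to them among other protein-coding genes that lie opposite a gene of at least 4 times their CPM were Hacd4 opposite Focad (log2 -1.59 in vivo and -1.58 post-mortem) and Prss48 inside Sh3d19 (-1.80 and -1.53).

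Per length of gene, the order within a pair differed from the order of UMIs for Fndc9 and Lrtm1, and was the same for the other pairs. Averaged over the 4 libraries, Fndc9 had 8.58 CPM per kb of gene body against 1.37 for Cyfip2, and Lrtm1 1.49 against 1.27 for Cacna2d3. Angptl2 (0.448 CPM per kb) stood below Ralgps1 (0.773), Angpt2 (0.208) below Mcph1 (0.419) and Rec114 (0.113) below Nptn (5.38). Gene bodies rather than exons were used for these lengths, since nuclear counts include introns.

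Expressing the minor partner per 100 UMIs of its own partner removes the scaling of the library. Lrtm1 stood at 0.777 UMIs per 100 Cacna2d3 UMIs in vivo fixed against 2.66 in vivo unfixed, and at 1.20 post-mortem fixed against 3.75 post-mortem unfixed. Rec114 per 100 Nptn was 0.913 against 3.75 in vivo and 1.21 against 4.81 post-mortem. These are the 2 pairs in which the major partner outnumbers the minor one most.

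Angptl2 per 100 Ralgps1 was 3.74 against 9.44 in vivo and 4.49 against 12.02 post-mortem. Angpt2 per 100 Mcph1 was 5.61 against 14.4 and 6.80 against 20.4. Fndc9 per 100 Cyfip2 was 8.19 against 28.3 and 12.5 against 42.9. The unfixed over fixed fold of these ratios ran from 2.52 (Angptl2, in vivo) to 4.10 (Rec114, in vivo), with a median log2 ratio, fixed over unfixed, of -1.78 in vivo and -1.64 post-mortem. Among 167 other protein-coding genes opposite a gene of at least 4 times their CPM, 9.58% had a ratio lower by 2-fold or more in both pairs, while 49.7% had a lower ratio of any size.

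The harvest comparison, which the choice of genes did not use, gave one direction for this ratio. In all 5 pairs the minor partner stood lower per partner UMI in the in vivo libraries than in the post-mortem ones, in the fixed pair and in the unfixed pair, and all 10 intervals lay below 0. The log2 ratio, in vivo over post-mortem, ran from -0.26 (Angptl2) to -0.63 (Lrtm1) in the fixed pair and from -0.35 (Angptl2) to -0.60 (Fndc9) in the unfixed pair. For Lrtm1 it was -0.63 (-0.80 to -0.45) fixed and -0.49 (-0.59 to -0.39) unfixed. For Angpt2 it was -0.28 (-0.52 to -0.03) and -0.51 (-0.66 to -0.36), the fixed value being the closest of the 10 to including 0. Of the 167 other genes, 61.7% had a lower ratio in vivo in both pairs, with medians of -0.18 (fixed) and -0.17 (unfixed), so the direction alone was common and the 5 pairs lay below those medians.

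The parts of that ratio differed between pairs. Cacna2d3 was lower in vivo (log2 -0.30 in both pairs) and Lrtm1 more so (-0.93 fixed, -0.79 unfixed), while Rec114 (-0.40 and -0.43) stood lower beside a nearly level Nptn (0.01 and -0.07). Fndc9 was lower (-0.42 in each) while Cyfip2 was higher (0.19 and 0.18). Ralgps1 (0.18 and 0.24) and Mcph1 (0.23 and 0.35) were higher in vivo, where Angptl2 (-0.08 and -0.11) and Angpt2 (-0.05 and -0.16) differed little. With every class weighted equally, the unfixed values of Lrtm1 (0.076), Cacna2d3 (0.14) and Angpt2 (0.11), the fixed value of Cacna2d3 (0.041) and the fixed ratio of Angptl2 to Ralgps1 (0.036) turned positive. In all nuclei none of the 10 genes passed 2-fold between harvests in both pairs, against 0.123% of genes lower and 0.337% higher by that much. Among all genes 59.4% were lower and 26.7% higher in vivo in both pairs at any size. In excitatory neuron-like nuclei Lrtm1 did pass, at 3.49 against 8.95 CPM fixed and 13.4 against 30.5 CPM unfixed (log2 -1.35 and -1.18), where 0.533% of genes were that much lower. In microglia-like nuclei Cacna2d3 (log2 1.52 fixed and 1.35 unfixed) and Cyfip2 (2.23 and 1.01) were higher in vivo, as were 6.47% of genes there. The counts were low, with 64 in vivo against 22 post-mortem Cacna2d3 UMIs fixed and 119 against 40 unfixed. For Cyfip2 they were 30 against 6 fixed and 24 against 10 unfixed. The 30 neuronal markers also took more of the microglia-like UMIs in vivo (0.22% fixed, 0.252% unfixed) than post-mortem (0.0686% and 0.147%), and their part in this was not tested.

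**Figure D3:**
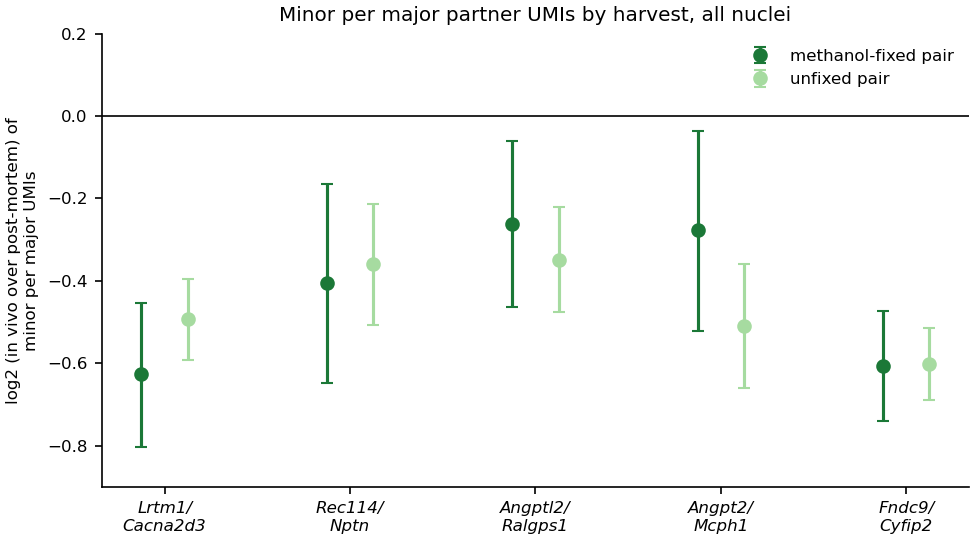
Log2 ratio, in vivo over post-mortem, of minor UMIs per major UMIs in all nuclei, for the methanol-fixed pair (dark) and the unfixed pair (light) of each gene pair; bars are exact 95% intervals. All 10 values lie below 0, between -0.63 and -0.26.

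Within the 3 neuronal classes the harvest values were less even. The ratio was lower in vivo in 13 of 15 pair-by-class values of the fixed libraries, with 5 intervals below 0, and in 14 of 15 of the unfixed libraries, with 10 intervals below 0. For Lrtm1 the excitatory class differed most of the 3, at 0.636 in vivo against 1.20 post-mortem per 100 Cacna2d3 UMIs fixed and 2.13 against 3.57 unfixed. Which class differed most was not the same for the other pairs. The exceptions were Angpt2 in fixed excitatory neuron-like nuclei (5.32 in vivo against 5.10 post-mortem per 100 Mcph1 UMIs), Rec114 in fixed medium spiny neuron-like nuclei (0.919 against 0.782 per 100 Nptn UMIs) and Rec114 in unfixed inhibitory neuron-like nuclei (7.44 against 6.89), and their intervals include 0. The share of excitatory neuron-like nuclei also differed between the harvests, as given above.

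The fixation values within classes describe the choice of the pairs as well. The minor partners also passed the filters on UMIs and CPM below mainly through the unfixed libraries, where they were high, so the counts support nothing. Of 18 pair-by-class ratios with at least 50 minor UMIs over the 4 libraries, 17 were at least 2-fold lower after methanol in both pairs, where the 167 other genes gave 8.38% of 871 such values. The remaining one was Angptl2 in oligodendrocyte-like nuclei, at 5.38 against 10.1 per 100 Ralgps1 UMIs in vivo and 6.45 against 14.7 post-mortem. In CPM, 5 of 5 minor partners passed 2-fold in medium spiny neuron-like nuclei, against 2.7% of the genes tested there, 5 of 5 in inhibitory neuron-like nuclei (1.84%) and 4 of 4 that reached 10 CPM in excitatory neuron-like nuclei (2.21%). Angptl2 did in oligodendrocyte-like nuclei (4.14%) and Fndc9 in precursor-like nuclei (1.3%), each the only minor partner to reach 10 CPM there, and none reached it in astrocyte-like (1.56%) or microglia-like nuclei (2.61%). Rec114 did not reach 10 CPM on average in excitatory neuron-like nuclei. The count was 0 of 5 major partners in each of the 7 classes compared.

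The levels of Lrtm1 and Cacna2d3 varied together over the neuronal classes. Lrtm1 in medium spiny neuron-like nuclei had 21.9 CPM in vivo fixed against 90.9 CPM in vivo unfixed, and 29.2 CPM post-mortem fixed against 106 CPM post-mortem unfixed. In excitatory neuron-like nuclei it had 3.49 against 13.4 CPM and 8.95 against 30.5 CPM. Cacna2d3 had 2717 against 3071 CPM and 2626 against 2775 CPM in the medium spiny class, and 549 against 631 CPM and 746 against 854 CPM in the excitatory class. Within the post-mortem unfixed library Lrtm1 thus varied 6.39-fold over the 3 neuronal classes and Cacna2d3 5.83-fold, while Lrtm1 per 100 Cacna2d3 UMIs stayed between 3.47 and 3.81, a 1.10-fold range. In the in vivo fixed, in vivo unfixed and post-mortem fixed libraries that range was 1.32-fold, 1.39-fold and 1.38-fold.

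Medium spiny neuron-like nuclei held 58.8% of the gated Lrtm1 UMIs and 54.3% of those of Cacna2d3 in the in vivo fixed library, 63.6% and 57.6% in vivo unfixed, 61.8% and 64.8% post-mortem fixed, and 70.9% and 69.4% post-mortem unfixed. Over all classes, the share of UMIs that would have to be moved to turn the spread of Lrtm1 into that of Cacna2d3 was 5.99%, 7.96%, 3.13% and 1.59% in the same order. To turn it into the spread of all UMIs, 40.2%, 43.3%, 31.9% and 35.3% would have to move. Both genes had most of their gated UMIs in this class in all 4 libraries.

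Angptl2 was spread differently and so was Ralgps1. Its level was highest in oligodendrocyte-like nuclei, the myelin-forming glia, with 16.1 against 39.8 CPM in vivo and 16.4 against 47.2 CPM post-mortem. In excitatory neuron-like nuclei it had 6.09 against 20.6 CPM and 6.89 against 23.4 CPM. Ralgps1 was also highest in oligodendrocyte-like nuclei, at 300 against 395 CPM in vivo and 254 against 321 CPM post-mortem, against 182, 227, 159 and 198 CPM in excitatory neuron-like nuclei in the same order of libraries. Over 4 classes Angptl2 per 100 Ralgps1 UMIs ranged 1.61-fold (in vivo fixed), 1.17-fold (in vivo unfixed), 1.49-fold (post-mortem fixed) and 1.28-fold (post-mortem unfixed).

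Angpt2 is known as an endothelial ligand. Over the 7 classes compared, most of its UMIs lay in neuron-like nuclei, as did most UMIs of all genes. To turn its spread into that of all UMIs, 5.05% (in vivo fixed), 6.06% (in vivo unfixed), 9.53% (post-mortem fixed) and 8.73% (post-mortem unfixed) would have to move. Vascular-like nuclei, of which there were 8 to 29 per library, held 1 of its 280 UMIs in vivo fixed, 1 of 809 in vivo unfixed, 2 of 322 post-mortem fixed and 0 of 889 post-mortem unfixed. The endothelial marker Flt1 had 37 of 135, 87 of 213, 89 of 134 and 64 of 149 of its UMIs there. With 10178 to 47026 UMIs in all in those nuclei, a count of 0 post-mortem unfixed allows up to 98.3 CPM. Over the 4 libraries, 3 counts there equal 63.8 to 295 CPM, above the neuronal levels given next. Counts of 0 to 2 therefore set neither a low nor a high level of Angpt2 in vascular-like nuclei. In the 3 neuronal classes Angpt2 stood at 4.07 to 5.97 CPM against 15.0 to 18.1 CPM in vivo and at 3.54 to 6.19 against 16.01 to 20.97 CPM post-mortem. Mcph1 varied less over these classes than Angpt2 in all 4 libraries, at 84.2 to 87.4 against 102 to 119 CPM and 69.4 to 76.3 against 82.0 to 89.3 CPM.

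Fndc9 and Cyfip2 were both lower in inhibitory than in excitatory neuron-like nuclei of the unfixed libraries. Fndc9 had 13.7 against 59.9 CPM in vivo and 19.5 against 83.5 CPM post-mortem in excitatory neuron-like nuclei, and 15.2 against 37.1 CPM and 16.3 against 36.7 CPM in inhibitory ones. Cyfip2 had 204 against 213 CPM and 184 against 199 CPM in the excitatory class and 142 against 136 CPM and 117 against 114 CPM in the inhibitory class. The ratio of the pair was at least 2-fold lower after methanol in all 3 neuronal classes, with the smallest difference in inhibitory neuron-like nuclei (10.7 against 27.3 per 100 Cyfip2 UMIs in vivo, 13.9 against 32.1 post-mortem).

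The ratio of Rec114 to Nptn varied over the classes. Per 100 Nptn UMIs it stood at 7.44 in inhibitory and 2.87 in excitatory neuron-like nuclei of the in vivo unfixed library, and at 6.89 and 4.32 in the post-mortem unfixed one. Microglia-like nuclei of the unfixed libraries gave 6.64 (3.57 to 11.4, from 14 Rec114 UMIs) in vivo and 13.0 (7.95 to 20.4, from 22 UMIs) post-mortem. Over the classes with at least 20 Rec114 UMIs the ratio ranged 1.83-fold (in vivo fixed), 2.60-fold (in vivo unfixed), 2.86-fold (post-mortem fixed) and 3.01-fold (post-mortem unfixed). This was the widest of the 5 pairs in each library, though the classes counted differ between pairs. The next widest were Angptl2/Ralgps1 (1.61), Fndc9/Cyfip2 (2.21), Angpt2/Mcph1 (1.59) and Fndc9/Cyfip2 (1.80) in the same order. The post-mortem unfixed range of Rec114 includes microglia-like nuclei, and over the 3 neuronal classes its ratio ran from 4.32 to 6.89. By the share of UMIs that would have to move between classes, Rec114 and Nptn were not the farthest apart in the in vivo fixed library (7.09%, against 7.80% for Fndc9 and Cyfip2) or the post-mortem unfixed one (6.18%, against 8.18% for Angpt2 and Mcph1). This is also the pair whose genes overlap only at their ends.

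**Figure D4:**
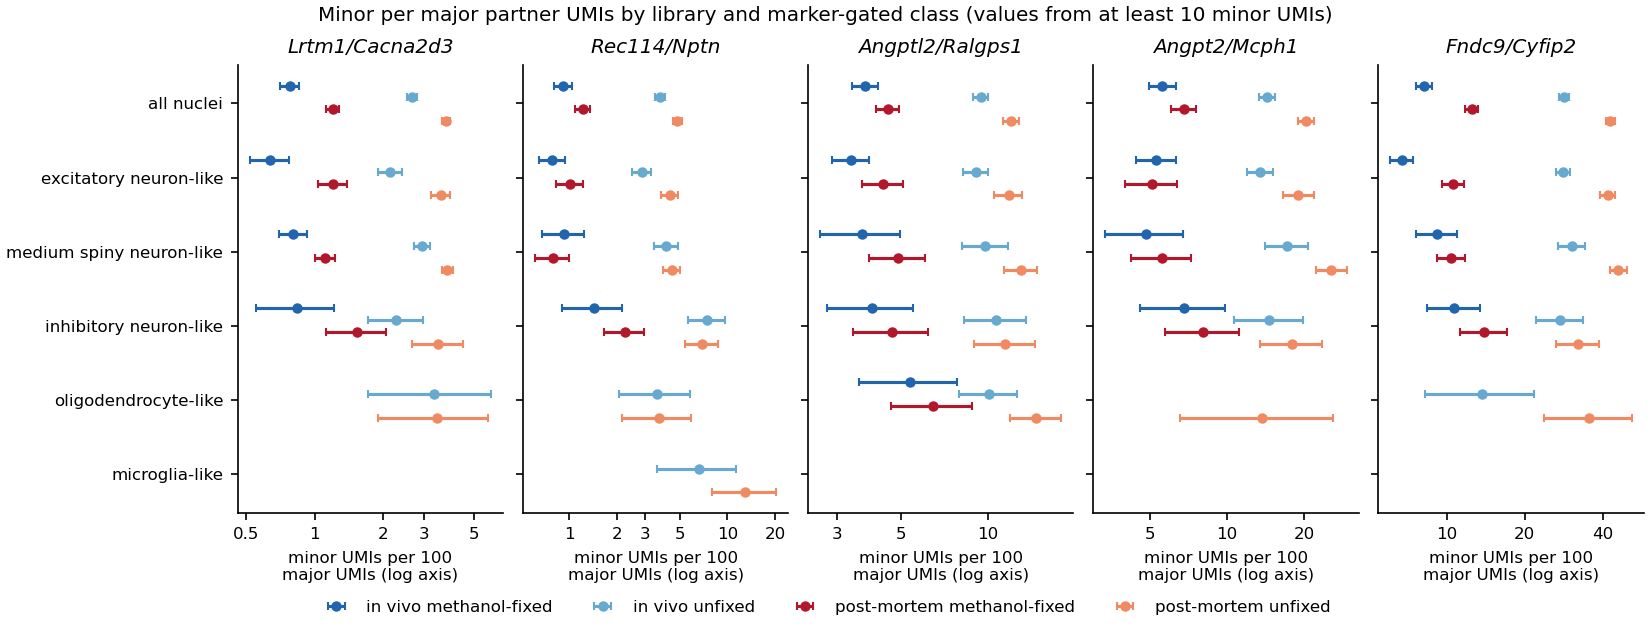
Minor UMIs per 100 major UMIs on a log axis, by class (rows) and library (colours), for the 5 pairs; bars are exact 95% intervals, and values from fewer than 10 minor UMIs are left out. Dark points (fixed) lie left of light ones (unfixed) of the same harvest in every class shown with both. Within a library the neuronal classes lie farthest apart for Rec114/Nptn.

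In glia the counts were small. Oligodendrocyte-like nuclei held 1 Lrtm1 UMI in vivo fixed and 12 in vivo unfixed, and 2 post-mortem fixed and 15 post-mortem unfixed, beside 190, 359, 233 and 438 Cacna2d3 UMIs. The unfixed ratios there, 3.34 and 3.42 per 100 Cacna2d3 UMIs, had intervals (1.71 to 5.91 and 1.90 to 5.71) that overlapped those of the neuronal classes of the same libraries. The 30 neuronal markers together took 0.159% of the UMIs of oligodendrocyte-like nuclei in vivo fixed, 0.165% in vivo unfixed, 0.0725% post-mortem fixed and 0.147% post-mortem unfixed, against 0.512% to 0.540% in excitatory neuron-like nuclei, with 29 or 30 of the 30 seen in each library. The part of neuronal RNA in these glial counts was not tested.

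Within single nuclei, co-detection was examined in excitatory neuron-like nuclei thinned to 2000 UMIs each. Lrtm1 was seen in 0.957% of nuclei with a Cacna2d3 UMI and 0.186% of those without in the in vivo fixed library, and in 3.81% and 1.36% in the in vivo unfixed one. The post-mortem libraries gave 2.40% and 0.847% (fixed) and 8.21% and 2.37% (unfixed). The exact binomial intervals of nuclei with and without a Cacna2d3 UMI did not overlap in either unfixed library (3.01 to 4.75 against 0.845 to 2.07 in vivo, 6.80 to 9.79 against 1.41 to 3.71 post-mortem). Nuclei of 1 library are not replicates, so all co-detection intervals describe single libraries. The part of subtypes within a class was not tested. In oligodendrocyte-like nuclei at the same depth, also added after the data had been seen, Lrtm1 was seen in 0 of 156 (in vivo fixed), 1 of 100 (in vivo unfixed), 0 of 230 (post-mortem fixed) and 1 of 182 (post-mortem unfixed).

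Medium spiny neuron-like nuclei, of which all but 52 to 88 per library had a Cacna2d3 UMI, were divided, in a comparison added after the data had been seen, at the median Cacna2d3 count of their library. Lrtm1 was seen in 4.64% of nuclei above it and 4.59% of the others in vivo fixed, 20.2% and 11.6% in vivo unfixed, 6.69% and 5.04% post-mortem fixed, and 21.3% and 14.5% post-mortem unfixed. The intervals were apart in both unfixed libraries and overlapped in both fixed ones. Whether the fixed and unfixed libraries differed in this was not tested.

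For the other 4 pairs the intervals of excitatory neuron-like nuclei with and without a partner UMI overlapped in all 4 libraries. Fndc9, for example, was seen in 10.99% and 10.2% of in vivo unfixed nuclei and in 17.2% and 14.9% of post-mortem unfixed ones. Angpt2 in the post-mortem unfixed library was seen in 4.62% of nuclei with an Mcph1 UMI and 2.22% of those without (intervals 2.61 to 7.50 and 1.59 to 3.01). The differences themselves were not tested.

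Other annotated genes inside the major partners were lower after methanol too. Besides the minor partners, 5 antisense genes with predicted names lay opposite Cacna2d3 (3 genes), Ralgps1 (1) and Mcph1 (1), and no gene on the same strand was annotated over any of the 10. Their log2 ratios, fixed over unfixed, ran from -1.97 to -1.09 in vivo and from -2.37 to -1.05 post-mortem. All 5 passed 2-fold in both pairs, against 39.8% of the 1099 genes annotated as antisense at a mean of 1 CPM or more. That share was 49.5% of the 281 antisense genes at 10 CPM or more.

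Across the table, the share of genes at least 2-fold lower moved with the presence and level of an opposite gene. Of 5668 protein-coding genes with no gene on the other strand, 0.106% were at least 2-fold lower in both pairs. The share was 0.249% of 2809 genes whose partner had the lower CPM, 2.88% of 520 with a partner of 1 to 4 times their CPM, 12.6% of 151 at 4 to 16 times and 23.8% of 21 above that. Among genes that are not protein-coding it was 2.70%, 4.38%, 27.6%, 59.3% and 73.5% in the same order. Levels of both fixed and unfixed libraries entered the CPM ratio that formed these groups, and the 5 minor partners, chosen for this value, are among the genes counted. Without the 10 members the shares for protein-coding genes were 10.8% of 148 at 4 to 16 times and 15.8% of 19 above that. Their median log2 ratios were small, at -0.09 in vivo and -0.10 post-mortem, and -0.21 and -0.26. With no gene on the other strand the median was 0.01 in each pair. Among genes that are not protein-coding the medians were -1.21 in each pair at 4 to 16 times, and -1.32 and -1.34 above that.

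Nesting separated the coding genes further. Leaving out the 5 pairs, 11 of 30 genes (36.7%) that lie wholly inside a gene of at least 4 times their CPM were at least 2-fold lower in both pairs, with median log2 ratios of -0.83 in vivo and -0.78 post-mortem. Of 137 that overlap such a gene in part, 8 (5.84%) were, with medians of -0.05 and -0.10. Rec114, left out of these counts, also overlaps its partner in part. The groups were formed after earlier results of these data were known.

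**Figure D5:**
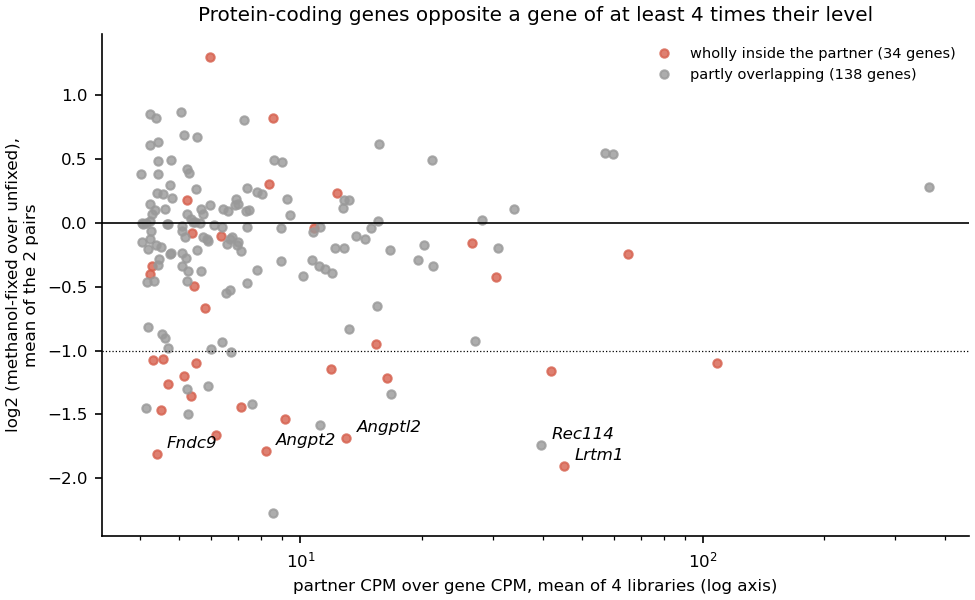
Log2 ratio, methanol-fixed over unfixed, averaged over the in vivo and the post-mortem pair, against the ratio of partner to gene CPM (log axis) for 172 protein-coding genes opposite a gene of at least 4 times their level; the dotted line marks 2-fold lower. Of genes wholly inside their partner (red) 44.1% were at least 2-fold lower in each pair, against 6.52% of partly overlapping ones (grey). These shares count the 5 minor partners, which were chosen for this value and lie between -1.98 and -1.67 in the single pairs. Without them the shares were 36.7% and 5.84%.

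Of the 172 genes 24 were at least 2-fold lower and 1 at least 2-fold higher in each pair. The 5 minor partners, chosen for this value, are among the 24, and without them it was 19 of 167 (11.4%). The higher one was Gpr22, an orphan receptor gene inside Cog5 (log2 1.31 in vivo and 1.30 post-mortem). Omg, the oligodendrocyte myelin glycoprotein gene inside an intron of Nf1, stood higher by less than 2-fold (0.90 and 0.74). Prelid1 opposite Rab24 (0.99 and 0.74), Dusp1 opposite Ergic1 (0.92 and 0.69) and Snapin opposite Ilf2 (0.89 and 0.82) were the other 3 of the 5 highest genes, ranked by the higher of their 2 values, and did not pass 2-fold in each pair either.

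The other genes of the members' pathways gave mostly small differences. Of 10 calcium channel alpha2delta, beta and gamma subunit genes at 10 CPM or more, Cacna2d3 included, 7 were lower and 2 higher in the fixed library of both pairs and 0 passed 2-fold, against 47% lower and 40.9% higher among all genes. Cacna2d1 stood at 0.21 in vivo and 0.20 post-mortem (log2) and Cacng8 at -0.62 and -0.44. Among 6 leucine-rich repeat transmembrane genes Lrtm1 alone passed 2-fold, and its paralogue Lrtm2 was at 0.55 and 0.66.

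Of 7 genes of the neuroplastin and basigin family with the calcium pumps, 5 were higher and 2 lower, among them Bsg, which encodes basigin, at 0.78 and 0.72 and the pump gene Atp2b2 at -0.39 and -0.38. For Rec114, 3 of 10 listed meiotic genes reached 10 CPM, and Mei4 stood at -0.01 and -0.04 and Mei1 at -0.13 and -0.22. None of the 6 measured Ral GTPase and exchange factor genes, of the 5 microcephaly genes or of the 9 WAVE complex genes passed 2-fold. Cyfip1, the paralogue of Cyfip2, was at -0.22 and -0.15, and the WAVE subunit gene Wasf1 at 0.23 and 0.22. Of the 11 listed FNDC genes 6 reached 10 CPM, and of these Fndc9 alone passed 2-fold. Below that level, Fndc8 (-1.78 and -1.35), Angptl7 (-1.04 and -1.01) and the meiotic gene Meiob (-1.79 and -1.25), at a mean of 3.68, 0.712 and 0.467 CPM, were also lower by 2-fold or more in each pair.

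Of the 4 genes of the angiopoietin list that reached 10 CPM, Angpt2, Angptl2 and the receptor gene Tek, which encodes TIE2, passed 2-fold in the lower direction in each pair, while Angpt1, the other TIE2 ligand, was at 0.14 in vivo and 0.31 post-mortem. Tek had 8.30 against 19.7 CPM in vivo and 8.57 against 20.2 CPM post-mortem (log2 -1.24 and -1.23). Of its UMIs, vascular-like nuclei held 6 of 495 (in vivo fixed), 12 of 1019 (in vivo unfixed), 16 of 570 (post-mortem fixed) and 13 of 1027 (post-mortem unfixed). Of all UMIs they held 10178 of 59659789, 47026 of 51823037, 28272 of 66475595 and 30504 of 50967320 in the same order. Per UMI, Tek was thus more frequent in these few nuclei than in all nuclei of each library. As Angpt2 and Angptl2 were chosen for their values, the list is no independent evidence.

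Across 28 values, one per class and library, the genes most like each minor partner were compared by the Pearson correlation of log2(CPM + 1) over 15334 genes, as a description in which points share libraries and depth. Leaving out predicted names, the nearest were Pde6a for Lrtm1 (r = 0.85), Usp50 for Rec114 (0.88), Xrcc6 for Angptl2 (0.89), Ptprq, Agrp and Hacd4 for Angpt2 (0.85, 0.80 and 0.80) and Sorbs2os for Fndc9 (0.93). Among the predicted names left out, an antisense gene opposite Cacna2d3 was the nearest of all to Lrtm1 (r = 0.90). That gene was also nearest over the fixed libraries (0.96), but not among the 3 nearest over the unfixed ones. The own partner ranked 38th for Lrtm1 (r = 0.77), 1429th for Rec114 (0.47), 96th for Angptl2 (0.69), 9th for Angpt2 (0.76) and 199th for Fndc9 (0.76). Over the 14 values of the fixed libraries the partner ranked 220th for Lrtm1 (0.73), 532nd for Rec114 (0.64), 50th for Angptl2 (0.79), 4th for Angpt2 (0.86) and 100th for Fndc9 (0.90). Over the 14 of the unfixed libraries it ranked 8th (0.90), 627th (0.68), 81st (0.85), 50th (0.80) and 22nd (0.89) in the same order of genes.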

How the data were processed

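Whole-number UMI counts per gene and barcode were used as deposited by the authors, with mm10 as the build per the submitters' processing notes. The aligner, cell caller and strand setting are not given in the sources used here. The members, lists and nested groups were chosen with earlier results of these data known.

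Filters kept nuclei with 500 UMIs, 300 genes and at most 5% mitochondrial UMIs, and doublets called with Scrublet in scanpy 1.11.5 (assumed rate 6%) were removed, which was 11.0% (in vivo fixed), 15.5% (in vivo unfixed), 9.11% (post-mortem fixed) and 13.4% (post-mortem unfixed) of those passing. A nucleus was gated to the class with most of its 10 markers seen, with at least 3 seen and a lead of 2 over any other class. The gate was set after the data had been seen. Classes were compared with at least 100 nuclei and 100000 UMIs in every library. UMIs were summed and scaled to CPM. Ratios carry 0.5 added counts and exact conditional 95% intervals, CPM Poisson intervals and shares Clopper-Pearson intervals, computed with scipy 1.17.1. Only the fixation ratios of genes scaled to library totals, with their intervals, were tested on simulated Poisson data. The intervals of minor per major UMIs, CPM and shares were not. All these intervals cover counting error only. A count of 0 was bounded by 3 counts. Co-detection used nuclei thinned to 2000 UMIs, without those below that depth. Genes were compared at a mean of 10 CPM or more, within classes also at 50 UMIs.

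Positions came from GENCODE M21, to which 32235 of 32285 gene identifiers matched, and sequences from RefSeq (GRCm38.p6) and GENCODE transcripts. Named beside the members were measured pathway genes, genes overlapping a member, the 3 genes most like each minor partner, and the 5 lowest and 5 highest other opposite-strand genes, without predicted names. Flt1 and the cases named as exceptions were chosen after their values were seen. Alternatives were median-of-ratios scaling, other nucleus filters, doublets kept, equal class weights, thinning to 1000 UMIs, other thresholds, a stricter gate (4 markers, lead of 3) and exonic overlap.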

Additional observations from a re-analysis of the deposited data

How the results depend on the processing

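The count of minor partners at least 2-fold lower after methanol in both pairs was 5 of 5, and that of major partners 0 of 5, under every alternative run (median-of-ratios scaling, at least 1000 UMIs, all deposited barcodes, doublets kept, equal class weights, thinning to 1000 UMIs and a 1.5-fold threshold). The number of all genes that much lower was 215, and 759 with a mean of 1 CPM or more, 1819 without a filter on low values and 419 at 1.5-fold. With every class weighted equally, the median log2 of minor per major UMIs was -1.38 for fixation in the post-mortem pair, and -0.32 (unfixed) and -0.58 (fixed) for harvest. That setting also turned the harvest log2 ratios of Lrtm1 (0.076), Cacna2d3 (0.14) and Angpt2 (0.11) in the unfixed pair, of Cacna2d3 (0.041) in the fixed pair, and of Angptl2 per Ralgps1 UMIs (0.036) in the fixed pair. Median-of-ratios scaling turned the unfixed harvest value of Nptn (0.027). Other settings changed the size of many member log2 ratios without turning their sign. Thinning to 1000 UMIs did so for 7 of 10 fixation values in vivo and 8 of 10 post-mortem, and for 6 of 10 harvest values in each pair. Median-of-ratios scaling did so for 5 of 10 fixation values in each pair, and equal class weights for 7 in vivo and 6 post-mortem. The cause was not tested. Of protein-coding genes opposite a gene of at least 4 times their CPM, 14.0% were at least 2-fold lower, and 8.94% where exons overlap. Both shares count minor partners chosen for this value (only Rec114 in the second), and without the 5 pairs the first was 11.4%. The pair-by-class count was 15 of 17 with the stricter gate and 22 of 23 with doublets kept. No paired analysis was possible because the groups share only 1 replicate number. A fit of fixation and harvest over the 4 libraries, which would leave 1 residual degree of freedom, was not run. Depth limits the glial and vascular values, which rest on few minor UMIs and, for Cyfip2 in microglia-like nuclei, on few major UMIs.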
